A study of Mus musculus with 108 samples.

Results

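The astrocyte genes described here are Aqp4, Slc1a2, Slc1a3, Aldh1l1, S100b, Gja1, Gjb6, Glul, Aldoc and Sox9, 10 of the 53465 genes of the count table, matched to their rows by Ensembl identifier. They were followed in bulk RNA-seq of 3 regions of the mouse brain, the cortex of the cerebrum (CX), the hippocampus (HIP) and the cerebellum (CB), late in gestation (E17.5), 7 days after birth (P7) and in the young adult at 35 days (P35). Wild-type mice (WT) were compared with Cul3+/- mice (HET), germline heterozygotes for a frame-shifting CRISPR insertion in Cul3 that descend from 1 founder and so form 1 line. All mice had a C57BL/6N background (the labels write C56Bl/6N), no agent was given, the 3 regions of a mouse were dissected from the same brain, and the labels do not give the sex. Of 108 libraries from 36 mice, 102 were used, because the genotype of mice P35_22 and P35_23 differs between the labels and the sample table of the study. Each of the 18 groups therefore held 6 libraries at E17.5 and at P7 and 5 at P35. The libraries hold all cells of a region, so the cells that carried each transcript were not measured.

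Astrocytes take up the glutamate and potassium that neurons release, pass water and small molecules through channels, and are joined to each other by gap junctions. They arise late in brain development from radial glia, after most neurons are born, and go on maturing for weeks after birth. Slc1a2 (GLT-1) and Slc1a3 (GLAST) are the main glial glutamate transporters, and Glul encodes glutamine synthetase, which turns the glutamate into glutamine. Aqp4 encodes the water channel of astrocyte endfeet, and Gja1 (connexin 43) and Gjb6 (connexin 30) encode the astrocyte gap junction proteins. Aldh1l1 is a folate enzyme, Aldoc the aldolase C of glycolysis, S100b a calcium-binding protein and Sox9 a transcription factor that acts early in the making of glia. Several are not exclusive to astrocytes: Slc1a3 is found in radial and Bergmann glia, Sox9 in neural progenitors, and Aldoc in some Purkinje cells of the cerebellum.

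The promoters of 4 genes whose levels rose through the period course are shown, to give the DNA just before the start of genes that move together. They are the 250 bases before the RefSeq start (build GRCm38.p6, written 5′ to 3′ on the strand of the gene), chosen because the windows of S100b, Gjb6, Gja1 and Slc1a3 overlap no annotated exon. The windows are chr10:76253586-76253835 on the plus strand for S100b, chr14:57133612-57133861 on the minus strand for Gjb6, chr10:56377050-56377299 on the plus strand for Gja1 and chr15:8710808-8711057 on the minus strand for Slc1a3. Capitals mark matches on either strand to the NFI motif TTGGCA, the SOX motifs ACAAAG and ACAATG, or the STAT motif TTCNNNGAA, factors known to act in astrocyte genes.
S100b: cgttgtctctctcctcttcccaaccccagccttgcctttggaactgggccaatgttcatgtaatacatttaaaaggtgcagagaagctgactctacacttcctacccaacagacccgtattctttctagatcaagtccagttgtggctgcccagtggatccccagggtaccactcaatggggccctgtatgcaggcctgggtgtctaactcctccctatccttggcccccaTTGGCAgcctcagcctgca
Gjb6: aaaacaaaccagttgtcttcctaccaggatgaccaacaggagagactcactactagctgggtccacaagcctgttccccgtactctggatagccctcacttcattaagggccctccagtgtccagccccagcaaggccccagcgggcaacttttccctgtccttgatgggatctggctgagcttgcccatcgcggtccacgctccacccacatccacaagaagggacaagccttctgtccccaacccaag
Gja1: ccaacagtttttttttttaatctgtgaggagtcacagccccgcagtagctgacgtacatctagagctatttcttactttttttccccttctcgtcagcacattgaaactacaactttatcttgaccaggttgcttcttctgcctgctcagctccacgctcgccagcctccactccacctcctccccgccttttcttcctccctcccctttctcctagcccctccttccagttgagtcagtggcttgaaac
Slc1a3: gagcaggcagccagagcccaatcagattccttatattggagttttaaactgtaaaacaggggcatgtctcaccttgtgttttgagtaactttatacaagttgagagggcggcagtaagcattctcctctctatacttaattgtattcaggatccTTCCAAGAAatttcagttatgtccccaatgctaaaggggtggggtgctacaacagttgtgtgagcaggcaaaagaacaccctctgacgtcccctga
The S100b window held an NFI motif at bases -19 to -14 from the start, and the Slc1a3 window a STAT match at bases -96 to -88. No motif of the 4 stood in the Gja1 and Gjb6 windows. Over all 32817 mouse promoter windows the NFI motif was found in 12.3%, ACAAAG in 16.5%, ACAATG in 10.7% and the STAT motif in 7.0%, so the matches are a description only. GC content was 53.6% for S100b, 56.8% for Gjb6, 50% for Gja1 and 44.8% for Slc1a3, against a median of 52.4% over all windows. A window was available for 8 of the 10 genes. The gene of S100b (chr10:76253853-76261159) overlaps Dip2a on the other strand at its 3′ end, and that of Glul (chr1:153899944-153909723) overlaps Teddm2 on the other strand at its start. On the same strand Aldh1l1 overlaps Gm45901 and Gm44236, Slc1a3 overlaps Gm37310 and Glul overlaps Mir8114. On the other strand Aqp4 overlaps AC133525.2, Slc1a2 overlaps Gm13872 and Aldh1l1 overlaps Gm15756. Further astrocyte genes lie at chr2:102658659-102790784 (Slc1a2), chr15:8634124-8710764 (Slc1a3), chr10:56377330-56402513 (Gja1), chr14:57123303-57133611 (Gjb6), chr6:90486427-90600203 (Aldh1l1), chr11:78322968-78327781 (Aldoc) and chr11:112782224-112787760 (Sox9).

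Total counts lay between 15126114 and 44411282 per library, and levels are given as CPM, the counts scaled to a common library size by TMM. Cul3 itself lay between 161 and 218 CPM in the WT libraries and between 85.5 and 125 CPM in the HET libraries, with no overlap. In CB the Purkinje cell gene Pcp2 stood 10.30, 12.81 and 11.82 above CX on the log2 scale at E17.5, P7 and P35. In 7 libraries the mitochondrial transcript mt-Nd5 was more than 2 times its group median: replicate 3 of E17.5 CX WT, 1 and 6 of E17.5 HIP WT, 4 of P7 CX WT, 3 of P7 HIP HET, and 3 and 5 of P35 CB WT. In these 7, the median difference from the group on the log2 scale was 0.88 for Slc1a2 and 0.71 for Sox9, values that 1.24% and 2.27% of 12229 genes exceeded, while the other members stood between -0.13 and 0.04. At E17.5 the 4 mice with S3 in their names stood apart most from the other 8. Their libraries did not overlap the other 8 for 25.2% of genes in CX, 21.0% in HIP and 11.2% in CB, and for 4 of 8, 3 of 8 and 4 of 9 members with enough counts. Aldh1l1 and Aqp4 were lower in them in all 3 regions, at 10.6 to 17.3 against 26 to 46.6 CPM for Aldh1l1 in CX and 1.39 to 1.90 against 2.59 to 6.22 CPM for Aqp4 in CX. Sox9 was higher in CX, at 19.9 to 29.1 against 11 to 13.4 CPM. The 4 mice named S4 stood apart for fewer genes. Of 14276 genes in CX 790 lay below and 599 above the other 8, and of 14728 genes 222 and 437 in HIP and 427 and 473 in CB. Above them were Aqp4 in CX and HIP, 1 of 8 members in each, and Aldh1l1, S100b and Slc1a3 in CB, 3 of 9. Leaving out the mice named S3, as done below, keeps the S4 mice in. The labels do not say what S3 or S4 stands for. Choroid plexus markers differed widely between libraries, from 4.75 to 4640 CPM in sum in E17.5 HIP WT and from 3.52 to 2983 CPM in P35 CB WT. The mean log2 CPM of the 5 meninges markers ran from 0.807 to 4.46 in E17.5 CB HET and from 4.92 to 5.93 in P7 CB HET. In their highest libraries, replicates 5 and 1, Gjb6 stood at 6.58 and 1.88 times the group median, and Gja1 at 1.64 and 1.43 times. In P35 HIP WT replicate 3, also highest in its group, Gjb6 stood at 0.95 times. The part of both marker lists in the results was not tested.

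The course from E17.5 to P35 was tested in WT mice of each region with edgeR's quasi-likelihood test, and a gene counts as called where the p adjusted by Benjamini-Hochberg over all genes tested was 0.1 or less. From E17.5 to P7, 9 of the 10 genes rose and Sox9 fell in CX and in HIP, and 8 rose and Sox9 fell in CB. Of all genes tested 41.3% rose and 40.6% fell in CX, 38.9% and 39.1% in HIP, and 35.7% and 35.5% in CB. The median log2 change of the 10 was 2.27 in CX, 1.76 in HIP and 0.80 in CB, where the median of all genes was 0.01, 0.00 and -0.01. From P7 to P35, 7 rose and none fell in CX, 6 rose and none fell in HIP, and 7 rose and Aldh1l1 fell in CB, where 33.2% of all genes rose and 34.5% fell in CX, 31.3% and 31.5% in HIP, and 40.0% and 39.4% in CB. The median of the 10 was then 1.05, 0.94 and 1.3, against -0.03, -0.01 and 0.01 over all genes. In bulk tissue fewer cells of a type and less RNA per cell cannot be told apart, and this holds for each change below. Scaling to total counts moved the median of all genes from P7 to P35 by about the same step in each region, to -0.18 in CX, -0.18 in HIP and -0.19 in CB, and from E17.5 to P7 in HIP to -0.14. The split of all called genes from P7 to P35 then became 4788 higher and 8068 lower in CX in place of 6174 and 6430, and 4017 and 7811 in HIP in place of 5763 and 5800. No called change of a member turned its direction with it, but Slc1a3 in HIP and Aqp4 in CB were then called lower from P7 to P35 (-0.14, adjusted p = 0.0874, and -0.64, adjusted p = 0.0762).

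**Figure D1:**
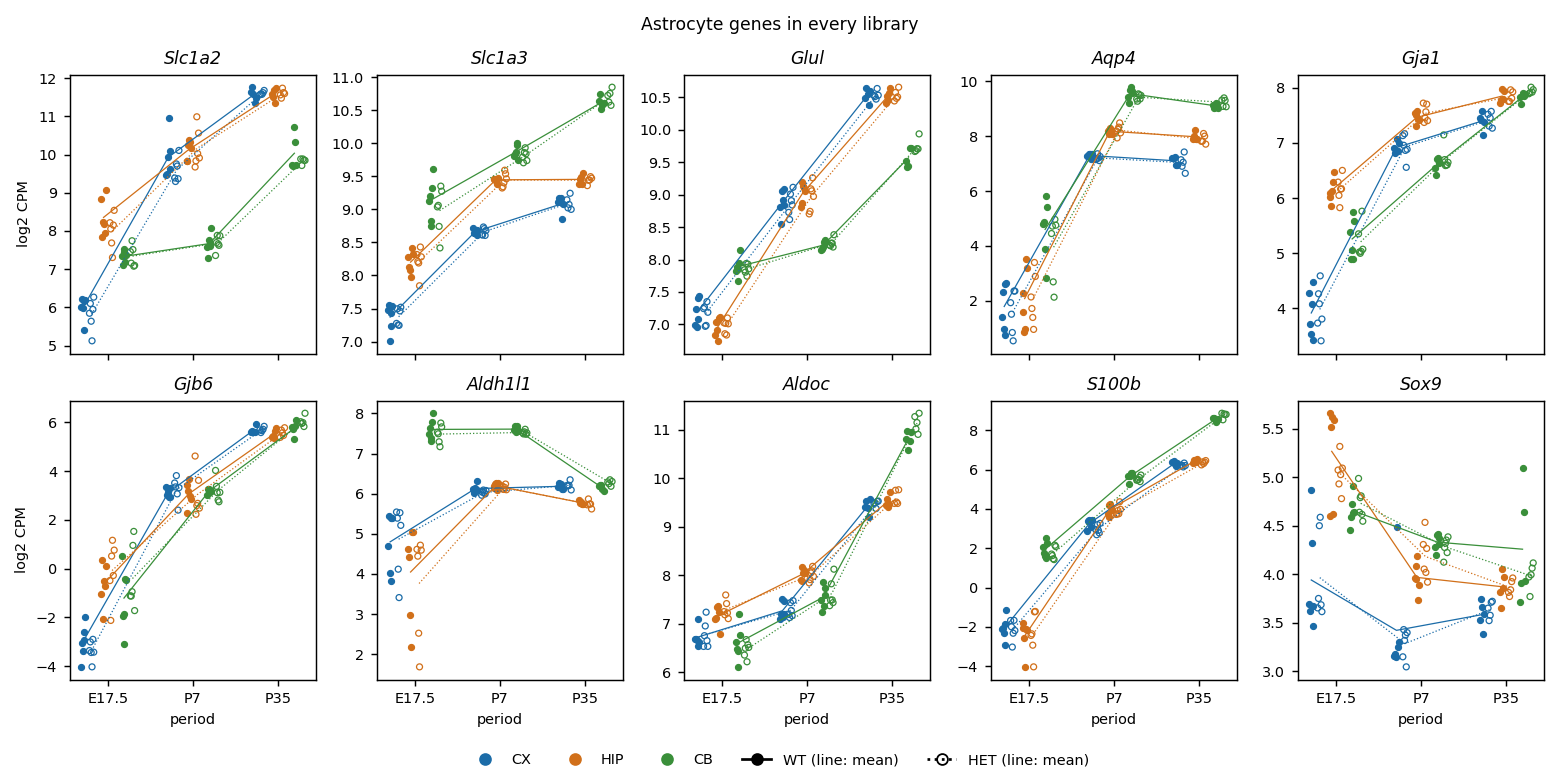
Levels of the 10 astrocyte genes in each library, as log2 CPM (vertical axis), by period (horizontal axis), with CX in blue, HIP in orange and CB in green, filled points for WT and open points for HET, and lines through the group means (solid WT, dotted HET). S100b and Gjb6 climb at both steps in every region, Aqp4 reaches its P35 range by P7, Aldh1l1 starts high and ends low in CB, and Sox9 does not climb.

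Slc1a2, the glutamate transporter that becomes dominant in the adult forebrain, was low in CX before birth and rose most there. In WT CX its lowest, median and highest values were 42.05, 68.4 and 74.3 CPM at E17.5 and 709, 884 and 1996 CPM at P7, and the 5 values at P35 were 3171, 3472, 3068, 2617 and 2852 CPM. The 3 periods did not overlap, and the value of 1996 CPM belonged to replicate 4, one of the libraries with high mt-Nd5. In HIP it was already at 231, 294.5 and 541 CPM at E17.5, then at 907, 1181 and 1343 CPM at P7, and at 3084, 2909, 3299, 2628 and 3413 CPM at P35. The 2 highest E17.5 values in HIP, at 1.84 and 1.55 times the group median, were those of libraries with high mt-Nd5. The HIP periods did not overlap, and at P35 CX and HIP did. In CB it lay at 138, 163.5 and 185.5 CPM at E17.5, at 156, 201 and 268 CPM at P7, and at 839, 830.4, 1683, 1279 and 843 CPM at P35. E17.5 and P7 overlapped in CB, P35 lay above both, and the 2 highest P35 values were those of the libraries with high mt-Nd5. The log2 change from E17.5 to P7 was 3.96 ± 0.24 (SE) in CX, 1.71 ± 0.18 in HIP and 0.33 ± 0.16 in CB (edgeR adjusted p = 4.54e-11, 1.87e-07 and 0.0789), and the CB call was lost without any of 5 single libraries, with values from 0.24 to 0.33 (adjusted p = 0.109 to 0.195). From P7 to P35 it was 1.57 ± 0.22 in CX, 1.46 ± 0.19 in HIP and 2.42 ± 0.17 in CB (adjusted p = 6.28e-06, 3.17e-06 and 2.81e-10). In HET mice the medians were 59.5, 750.0 and 3078 CPM in CX, 275, 1002 and 3094 CPM in HIP, and 159, 205 and 924 CPM in CB at the 3 periods in order. The HET changes were 3.71, 2.17 and 0.32 in log2 for the first step and 2.00, 1.40 and 2.16 for the second in CX, HIP and CB.

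Slc1a3, the transporter shared with radial and Bergmann glia, was highest in CB at every period. WT CX held 129, 174.9 and 187 CPM at E17.5 and 391, 404 and 422 CPM at P7, followed by 554, 579, 574, 464 and 539 CPM at P35. WT HIP held 252, 295 and 343 CPM, then 670.1, 700.0 and 715 CPM, then 670.3, 706, 720, 668 and 747 CPM. The CX periods did not overlap, while in HIP the P7 and P35 libraries did. In WT CB it lay at 432, 574 and 781 CPM at E17.5, at 863, 923 and 1028 CPM at P7, and at 1591, 1719.5, 1469, 1531 and 1565 CPM at P35, with no overlap between periods. The first step was 1.23 ± 0.08 in CX, 1.22 ± 0.07 in HIP and 0.69 ± 0.11 in CB (adjusted p = 2.36e-10, 3.82e-11 and 1.82e-05). The second was 0.45 ± 0.09 in CX and 0.76 ± 0.11 in CB (adjusted p = 0.000165 and 5.74e-06), and 0.03 ± 0.07 in HIP, which was not called (adjusted p = 0.715). HET medians were 166, 401 and 539 CPM in CX, 304, 691 and 696 CPM in HIP, and 530, 901 and 1691 CPM in CB. The HET log2 changes were 1.23, 1.19 and 0.79, then 0.47, 0.04 and 0.91.

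Glul, the enzyme downstream of both transporters, rose at both steps in all 3 regions, and its order between regions turned over. At E17.5 it was highest in WT CB, at 203, 235 and 284 CPM, against 124.5, 143.5 and 173 CPM in CX and 107, 126 and 138 CPM in HIP. CB did not overlap CX or HIP. At P7 the CX libraries held 374, 473 and 544 CPM, those of HIP 449, 541 and 589 CPM and those of CB 282, 299.8 and 314 CPM. P35 CX had 1442, 1604, 1501, 1335 and 1542 CPM and P35 HIP 1368, 1475, 1403, 1522 and 1591 CPM, while P35 CB had 734, 689, 697, 840.2 and 844 CPM. CB lay below both other regions at P7 and at P35 with no overlap. From E17.5 to P7 Glul rose by 1.64 ± 0.10 in CX, 2.06 ± 0.08 in HIP and 0.31 ± 0.07 in CB (adjusted p = 8.17e-11, 1.36e-12 and 0.000986), and the second 1.68 ± 0.11, 1.51 ± 0.08 and 1.36 ± 0.08 (adjusted p = 1.68e-10, 6.3e-11 and 6.48e-12). HET medians were 149, 469 and 1477 CPM in CX, 129, 518 and 1455 CPM in HIP, and 230.4, 302 and 835 CPM in CB, and the HET changes were 1.65, 1.98 and 0.39, then 1.69, 1.60 and 1.5.

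Within a library the ratio of Slc1a2 to Slc1a3 per kilobase of exon needs no scaling, and it was compared with exact 2-sided permutation tests of the log2 ratio, adjusted over 42 tests of 2 ratios. In WT CX the ratio at the mean was 0.250, 1.56 and 3.64 at E17.5, P7 and P35. Per kilobase, Slc1a2 thus passed Slc1a3 between E17.5 and P7. Where the ratio crosses 1 depends on the annotated exon length, 13133 bases for Slc1a2 and 8537 for Slc1a3. In WT HIP the ratio was 0.722, 1.04 and 2.83, and in WT CB 0.186, 0.141 and 0.433. In CB every library kept Slc1a3 above Slc1a2 at all periods, the highest log2 ratio of -0.43 being that of a P35 WT library with high mt-Nd5. The log2 ratio rose by 2.64 and then 1.22 in CX (exact permutation, adjusted p = 0.00535 and 0.00866), by 0.53 and then 1.44 in HIP (adjusted p = 0.0744 and 0.00535), and in CB by 1.62 at the second step (adjusted p = 0.00535), while its first step of -0.40 was not called (adjusted p = 0.170). The first HIP step lost its call without any of 7 single libraries (0.41 to 0.54, exact permutation, adjusted p = 0.112 to 0.153). HET libraries gave 2.5 and 1.57 in CX, 0.94 and 1.43 in HIP, and -0.49 and 1.26 in CB. HET did not differ from WT in any dataset at the threshold, with log2 differences from -0.37 in E17.5 HIP to 0.17 in E17.5 CB (exact permutation, adjusted p = 0.24 to 0.902).

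**Figure D2:**
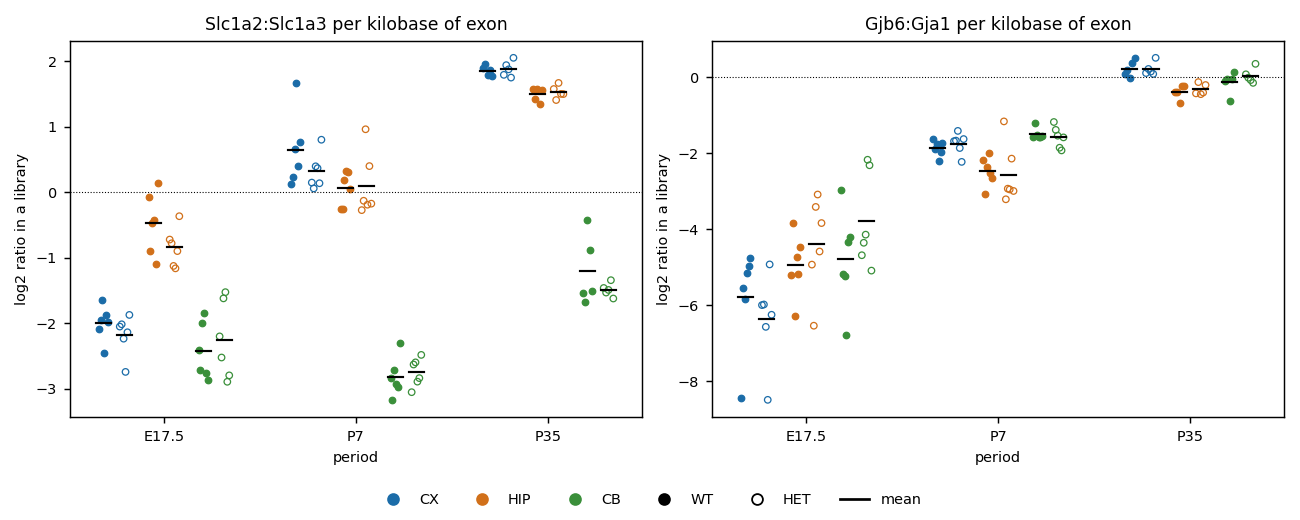
Log2 ratio of Slc1a2 to Slc1a3 and of Gjb6 to Gja1 per kilobase of exon in each library (vertical axis, the dotted line marks equal levels), by period and region, with bars at the group means and filled points for WT, open points for HET. The transporter ratio crosses 0 in CX and HIP and stays below it in CB, and the connexin ratio climbs from between -8.49 and -2.17 at E17.5 to between -0.68 and 0.51 at P35.

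Aqp4, the water channel, made almost its whole rise before P7. In WT CX its values were 1.64, 3.79 and 6.22 CPM at E17.5 and 146, 159 and 164 CPM at P7, and 146.1, 146.3, 152, 124.5 and 124 CPM at P35. In WT HIP they were 1.77, 3.91 and 11.5 CPM, then 268, 295 and 314 CPM, then 237, 259.8, 298, 240.1 and 236 CPM. E17.5 lay below the later periods without overlap in both, and P7 and P35 overlapped. WT CB had the highest median at each period, overlapping HIP at E17.5 only, with 7.06, 28.5 and 56.5 CPM at E17.5, 599.5, 782.5 and 885 CPM at P7, and 564, 521, 601, 564 and 522 CPM at P35. The first step was 5.29 ± 0.27 in CX, 5.73 ± 0.37 in HIP and 4.67 ± 0.35 in CB (edgeR adjusted p = 5.36e-12, 3.03e-10 and 1.84e-09). From P7 to P35 the values of -0.15 ± 0.22, -0.17 ± 0.31 and -0.44 ± 0.32 were not called when the spread was estimated over the 3 periods (adjusted p = 0.570, 0.664 and 0.216). With P7 and P35 libraries alone, an alternative chosen after the data were seen, the same differences of -0.16 ± 0.06, -0.18 ± 0.06 and -0.47 ± 0.09 were called in CX, HIP and CB (adjusted p = 0.0396, 0.0187 and 0.000296). In CB the call was also made without replicate 4 of E17.5 CB WT (-0.46, adjusted p = 0.0622) and without the E17.5 mice named S3 (-0.46, adjusted p = 0.00941). HET medians were 3.27, 146 and 133 CPM in CX, 3.79, 299 and 227 CPM in HIP, and 24.1, 689 and 634 CPM in CB, and the HET changes were 5.45, 5.88 and 5.14, then -0.13, -0.29 and -0.17. The last of these was called without the mice named S3 (-0.17, adjusted p = 0.0733).

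Gja1, connexin 43, rose at both steps in every region, but its highest region changed from HIP to a tie of HIP and CB. WT CX held 10.7, 14.9 and 22.3 CPM at E17.5 and 113, 118 and 135 CPM at P7, and 175.4, 170.3, 190.5, 142 and 166 CPM at P35. WT HIP held 58.0, 68.6 and 88.2 CPM, then 158, 177 and 191 CPM, then 212, 220.2, 253, 223 and 245 CPM. No period overlapped another in CX or HIP. WT CB held 29.5, 37.4 and 53.4 CPM, then 85.4, 99.9 and 106 CPM, then 227, 209, 239, 229 and 237 CPM, again without overlap. From E17.5 to P7 Gja1 rose by 2.90 ± 0.15 in CX, 1.3 ± 0.08 in HIP and 1.31 ± 0.12 in CB (adjusted p = 7.6e-12, 2.58e-10 and 2.55e-08), and the second 0.52 ± 0.14, 0.41 ± 0.09 and 1.23 ± 0.12 (adjusted p = 0.00444, 0.000493 and 3.26e-08). HET medians were 15.4, 121 and 174.9 CPM in CX, 71.7, 182 and 224 CPM in HIP, and 33.1, 98.5 and 242 CPM in CB, with HET changes of 2.86, 1.33 and 1.49, then 0.52, 0.35 and 1.22.

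Gjb6, connexin 30, was close to the limit of detection before birth. The 6 WT CX libraries at E17.5 held 0 to 5 counts each, 13 in all, and those at P7 held 1844 in all, a ratio of 116.5 after library size (95% exact interval 68.0 to 219). In HIP the ratio was 10.9 (9.0 to 13.2) and in CB 17.2 (14.2 to 21.04), and these intervals cover counting error only. The P7 values of the regions overlapped, at 7.69, 8.44 and 10.1 CPM in WT CX, 4.83, 8.51 and 12.6 CPM in HIP, and 8.15, 9.12 and 9.66 CPM in CB. At P35 they overlapped as well, with 48.2, 50.5, 48.6, 48.4 and 61.3 CPM in CX, 42.5, 43.6, 41.2, 50.03 and 54.2 CPM in HIP, and 55.4, 53.2, 40.1, 57.9 and 67.7 CPM in CB. The P35 differences between regions within mice are given with the region comparisons. The fitted log2 changes were 6.79 ± 0.25, 3.60 ± 0.30 and 4.11 ± 0.32 in CX, HIP and CB (adjusted p = 1.65e-13, 5.67e-09 and 3.17e-09), of which the CX value depends on the prior count. The second step was 2.59 ± 0.15, 2.44 ± 0.24 and 2.61 ± 0.25 (adjusted p = 3.75e-11, 1.28e-07 and 1.8e-08). HET medians were 0.0340, 10.1 and 51.6 CPM in CX, 1.07, 6.15 and 47.7 CPM in HIP, and 0.429, 8.67 and 63.8 CPM in CB, and the second HET step was 2.43, 2.32 and 2.80.

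The ratio of Gjb6 to Gja1 per kilobase at the mean was 0.0181, 0.276 and 1.17 at E17.5, P7 and P35 in WT CX. It was 0.0323, 0.182 and 0.768 in HIP and 0.0364, 0.355 and 0.911 in CB. Thus, per kilobase of annotated exon, the adult regions carried near equal levels of both connexins, where Gja1 had been far ahead before birth. The ratio depends on the exon length used, all annotated bases of the gene, 10257 for Gja1 and 2674 for Gjb6. The length of the transcripts present was not measured. Both steps were called in all 3 regions of WT and of HET (log2 steps of 1.36 to 4.62, exact permutation, adjusted p = 0.00535 to 0.00866, where 0.00216 is the smallest raw p of 6 against 6). Ratios at E17.5 rest on the few Gjb6 counts given above and on a pseudocount of 0.5 counts. HET and WT did not differ at the threshold in any dataset, with log2 differences from -0.58 in E17.5 CX to 0.99 in E17.5 CB (exact permutation, adjusted p = 0.308 to 0.976).

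Aldh1l1 was highest in CB at E17.5 and P7, and there it fell towards the adult. WT CB held 159, 189.6 and 257 CPM at E17.5 and 184, 194 and 208 CPM at P7, but 73.5, 74.8, 74.6, 68.9 and 66.5 CPM at P35. E17.5 and P7 overlapped and P35 lay far below both. WT CX held 14.2, 34.0 and 43.8 CPM, then 64.3, 69.1 and 79.7 CPM, then 71.9, 76.6, 75.9, 69.8 and 69.4 CPM. WT HIP held 4.44, 23.01 and 33.1 CPM, then 68.1, 74.2 and 77.0 CPM, then 57.2, 54.9, 55.8, 53.2 and 53.2 CPM, the P35 libraries lying below all P7 libraries. The first step was 1.1403 ± 0.22 in CX, 1.81 ± 0.32 in HIP and -0.02 ± 0.09 in CB (edgeR adjusted p = 0.000129, 6.28e-05 and 0.825). The second was -1.44 ± 0.10 in CB (adjusted p = 9.11e-11), 0.09 ± 0.23 in CX (adjusted p = 0.754) and -0.40 ± 0.32 in HIP (adjusted p = 0.313). The HIP value was called with P7 and P35 libraries alone (-0.40 ± 0.04, adjusted p = 7.98e-07) and without the E17.5 mice named S3 (-0.40, adjusted p = 0.00103), both chosen after the data were seen. HET medians were 39.5, 65.3 and 73.7 CPM in CX, 22.9, 70.3 and 53.5 CPM in HIP, and 183, 184 and 78.4 CPM in CB, and the HET changes were 0.92, 1.99 and 0.02, then 0.21, -0.37 and -1.24. Without the mice named S3 the first HET step in CX was 0.53 (adjusted p = 3.6e-07), and the second was called in CX (0.23, adjusted p = 0.00121) and HIP (-0.37, adjusted p = 1.26e-05), where it was not called with all mice.

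Aldoc, aldolase C, made most of its rise after P7, and in CB it ended as the highest member per kilobase of exon. WT CX held 93.6, 103 and 137 CPM at E17.5, 138, 147 and 183 CPM at P7, and 683, 746, 675, 589 and 759 CPM at P35. WT HIP held 110, 145 and 166 CPM, then 237, 265 and 289 CPM, then 702, 763, 684, 712.5 and 848.5 CPM. P35 stood above P7 without overlap in both. WT CB held 69.2, 93.8 and 147.5 CPM, then 151, 186 and 234 CPM, and then 1799, 2010.2, 1545, 1740.3 and 1992 CPM, also without overlap. Its first step was 0.50 ± 0.10 in CX, 0.85 ± 0.09 in HIP and 0.91 ± 0.15 in CB (adjusted p = 0.000176, 2.39e-07 and 2.7e-05), and the second 2.19 ± 0.11, 1.53 ± 0.10 and 3.27 ± 0.16 (adjusted p = 5.43e-12, 3.89e-10 and 1.08e-12). Summed Purkinje cell markers (Pcp2, Calb1, Car8 and Itpr1) also rose in CB, from 1733 to 1965 CPM at P7 to 7543 to 9198 CPM at P35 in WT, and their part in the Aldoc result was not tested. HET medians were 104, 151 and 721 CPM in CX, 151, 259 and 730.0 CPM in HIP, and 90.8, 180.1 and 2277 CPM in CB, with HET changes of 0.43, 0.68 and 1.16, then 2.22, 1.64 and 3.51.

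S100b was near the limit of detection in CX and HIP before birth, and of the 10 members it followed the mean of the others most closely. At E17.5 the WT CX libraries held 2 to 10 counts and those of HIP 0 to 8, against 98 to 198 in CB, where it lay at 2.76, 3.68 and 5.58 CPM. P7 values were 7.34, 10.1 and 10.9 CPM in CX, 12.1, 16.3 and 19.0 CPM in HIP and 39.0, 52.0 and 57.3 CPM in CB. At P35 they were 83.5, 85.7, 76.6, 72.8 and 80.1 CPM in CX, 79.9, 90.4, 86.9, 83.8 and 93.8 CPM in HIP, and 394, 392.3, 346, 372 and 378 CPM in CB. No period overlapped another in any region, and CB lay above CX and HIP throughout. The summed counts gave a P7 to E17.5 ratio of 49.2 (95% exact interval 35.1 to 71.2) in CX, 93.5 (62.7 to 146) in HIP and 12.8 (11.9 to 13.7) in CB. The fitted first step was 5.59 ± 0.19, 6.67 ± 0.21 and 3.70 ± 0.14 (adjusted p = 9.96e-14, 1.38e-13 and 3.77e-13), the first 2 resting on few counts, and the second step was 3.09 ± 0.13, 2.48 ± 0.13 and 2.89 ± 0.13 (adjusted p = 7.63e-13, 2.95e-11 and 3.28e-13). HET medians were 0.175, 7.54 and 74.05 CPM in CX, 0.129, 14.2 and 83.2 CPM in HIP, and 3.11, 44.6 and 447 CPM in CB, and the second HET step was 3.28, 2.47 and 3.26.

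Sox9, the gliogenic transcription factor, was the member that did not rise from E17.5. WT HIP held 24.1, 46.9 and 50.5 CPM at E17.5, then 13.2, 15.4 and 18.1 CPM, then 14.04, 12.5, 16.6, 14.4 and 15.6 CPM. P7 and P35 lay below E17.5 in HIP. WT CX held 10.9, 12.8 and 29.1 CPM, then 8.81, 9.24 and 22.4 CPM, then 11.5, 13.4, 12.6, 10.3 and 11.98 CPM. In WT CB the values were 21.9, 24.8 and 30.04 CPM, 18.3, 20.2 and 21.3 CPM, and 13.02, 14.99, 34.0, 24.9 and 15.2 CPM. The periods overlapped in CX, and in CB the P7 libraries lay below those of E17.5 without overlap. The values of 22.4 CPM at P7 in CX and of 34.0 and 24.9 CPM at P35 in CB came from libraries with high mt-Nd5. The first step was -1.38 ± 0.17 in HIP, -0.57 ± 0.25 in CX and -0.35 ± 0.17 in CB (edgeR adjusted p = 1.23e-06, 0.0475 and 0.0839). The CX call was lost without replicate 3 of E17.5 CX WT (-0.33, adjusted p = 0.179) and without the mice named S3 (-0.16, adjusted p = 0.502), and the value was -0.87 without replicate 4 of P7 CX WT (adjusted p = 0.000827). The CB call was lost without the mice named S3 (-0.26, adjusted p = 0.259) and without any of 8 single libraries (-0.29 to -0.36, adjusted p = 0.101 to 0.164). From P7 to P35 no change was called, with 0.11 ± 0.27 in CX, -0.07 ± 0.18 in HIP and 0.03 ± 0.18 in CB (adjusted p = 0.736, 0.760 and 0.873). Without the libraries with high mt-Nd5 the values became 0.41 in CX (adjusted p = 0.0108) and -0.46 in CB (adjusted p = 0.000153), both called, and in CX replicate 4 of P7 alone moved it to 0.41 (adjusted p = 0.0984). HET medians were 13.1, 10.1 and 12.5 CPM in CX, 33.1, 17.9 and 14.3 CPM in HIP, and 26.2, 19.6 and 15.9 CPM in CB. The HET changes were -0.79, -0.88 and -0.46, then 0.38, -0.29 and -0.28, and all were called (adjusted p = 0.000173, 4.13e-07, 2.68e-05, 0.0543, 0.0278 and 0.00394). Without the mice named S3 the first HET step in CX was -0.47 (adjusted p = 1.71e-05).

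**Figure D3:**
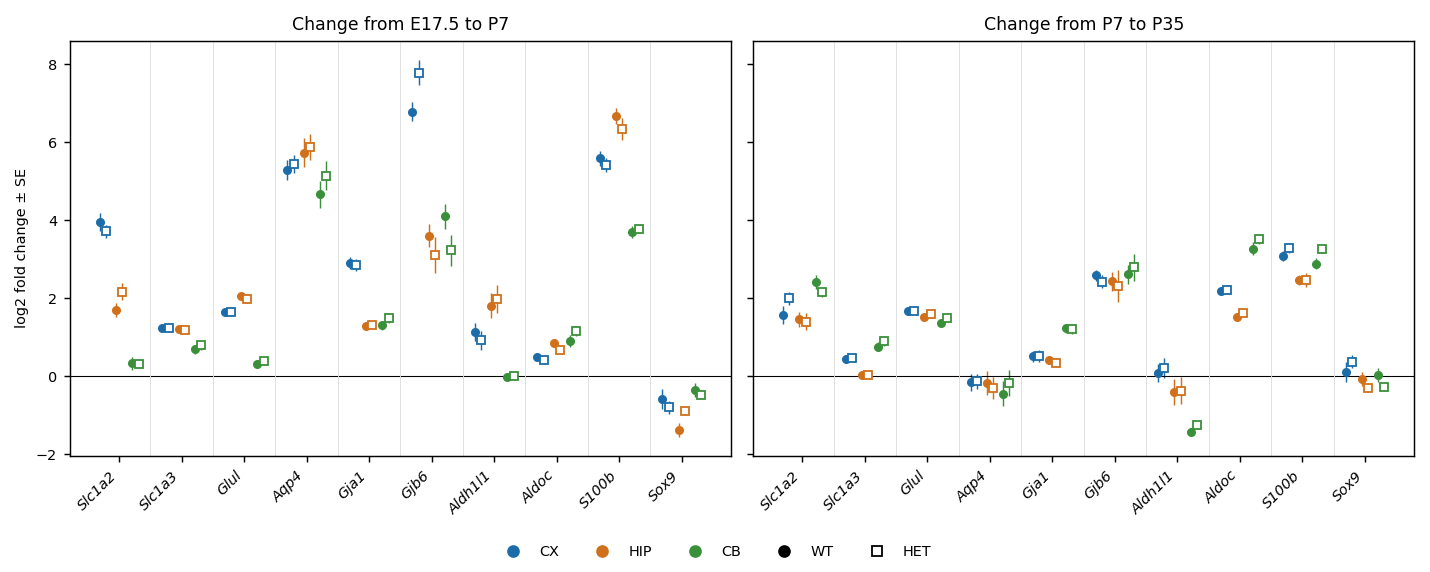
Log2 fold change ± SE (vertical axis) of each astrocyte gene (horizontal axis) from E17.5 to P7 (left) and from P7 to P35 (right), with CX in blue, HIP in orange and CB in green, filled circles for WT and open squares for HET. In WT Aqp4, Gjb6 and S100b change most at the first step, by 3.60 to 6.79, Aldoc, S100b and Gjb6 at the second, by 1.53 to 3.27, and Aldh1l1 falls by 1.44 in CB.

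Whether a step differed between regions was tested as an interaction in a model with the mouse as a block. From E17.5 to P7 it was called for 10 of the 10 genes, and for 77.2% of all 20298 genes tested. Glul (F = 236), S100b (F = 104), Slc1a2 (F = 103.5) and Gja1 (F = 87.1) had the highest statistics, and Aldoc the lowest (F = 3.93, adjusted p = 0.0415). From P7 to P35 it was called for 7 of 10, against 65.9% of all genes, led by Aldoc (F = 59.2) and Slc1a3 (F = 33.4). Aqp4, Gjb6 and Sox9 were not called there (adjusted p = 0.236, 0.864 and 0.642).

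Regions were compared within each period in WT, again with the mouse as a block. At E17.5 CB exceeded CX for 9 members, all but Aldoc, and these were 90.0% of the 10, where 61.7% of all genes were called in either direction. S100b stood 4.39 ± 0.26 above CX on the log2 scale, Aldh1l1 2.87 ± 0.26, Aqp4 2.87 ± 0.21, Gjb6 2.70 ± 0.73 and Slc1a3 1.80 ± 0.08, while Gja1 (1.36), Slc1a2 (1.35), Sox9 (0.73) and Glul (0.73) differed less. HIP against CX was called for 8 members (46.5% of all genes). Gjb6 (3.20 ± 0.72), Slc1a2 (2.39 ± 0.19), Gja1 (2.23 ± 0.15), Sox9 (1.36 ± 0.20), Slc1a3 (0.86) and Aldoc (0.46) were higher in HIP, and Aldh1l1 (-0.63 ± 0.25, adjusted p = 0.0649) and Glul (-0.20) lower. The highest Slc1a2 values in HIP were those of replicates 1 and 6, libraries of high mt-Nd5. The Aldh1l1 call was lost without mouse E17_5_S2_11 (-0.54, adjusted p = 0.174) or mouse E17_5_S3_6 (-0.57, adjusted p = 0.119) and without the block (-0.54, adjusted p = 0.290), it was -0.95 without the libraries of high mt-Nd5 (adjusted p = 0.0397), and without mouse E17_5_S2_11 Aqp4 was called higher in HIP (0.56 against 0.34, adjusted p = 0.0415). CB against HIP was called for 9 members (49.5% of all genes), with S100b (4.74), Aldh1l1 (3.50), Aqp4 (2.53), Slc1a3 (0.94) and Glul (0.93) higher in CB and Slc1a2 (-1.04), Gja1 (-0.87), Sox9 (-0.63) and Aldoc (-0.54) lower. The Aldoc call was lost without the mice named S3 (-0.28, adjusted p = 0.119), and Sox9 was at -0.35 without the libraries of high mt-Nd5 (adjusted p = 0.0694). Scaling to total counts changed the split of called genes at E17.5 to 5526 higher and 2347 lower in HIP against CX, in place of 4309 and 3968, and to 7075 and 3621 in CB against CX, in place of 5576 and 5399. It moved the median of all genes to 0.11, 0.17 and 0.14 in CB against CX at E17.5, P7 and P35 and to 0.14 and 0.11 in CB against HIP at P7 and P35, and at E17.5 the calls of Glul (-0.10, adjusted p = 0.186) and Aldh1l1 (-0.52, adjusted p = 0.128) in HIP against CX were lost with it.

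At P7 the regions parted in both directions. CB against CX was called for 9 members (82.9% of all genes), with S100b (2.46 ± 0.09), Aqp4 (2.31 ± 0.05), Aldh1l1 (1.53 ± 0.05), Slc1a3 (1.26 ± 0.04), Sox9 (0.94) and Aldoc (0.33) higher in CB. Slc1a2 (-2.22 ± 0.15), Glul (-0.61 ± 0.06) and Gja1 (-0.25 ± 0.04) were lower in CB. HIP against CX was called for 7 members, all higher in HIP (57.0% of all genes in either direction), with Aqp4 at 0.87, Slc1a3 at 0.77, Aldoc at 0.74, S100b at 0.69, Gja1 at 0.53, Sox9 at 0.50 and Glul at 0.13. The Glul call (adjusted p = 0.0653) was lost without any of 3 mice, P7_C1_8, P7_C2_10 or P7_C4_5 (0.10 to 0.14, adjusted p = 0.101 to 0.173), and without the block (0.13, adjusted p = 0.214). Slc1a2, at 0.17 ± 0.14, was not called (adjusted p = 0.354) and was called at 0.35 without mouse P7_C2_2 (adjusted p = 0.000269), whose CX library is the one with high mt-Nd5. CB against HIP was called for 9 members (78.2% of all genes), S100b (1.77), Aldh1l1 (1.48), Aqp4 (1.44), Slc1a3 (0.49) and Sox9 (0.44) being higher and Slc1a2 (-2.38), Gja1 (-0.78), Glul (-0.74) and Aldoc (-0.41) lower in CB.

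At P35 CB against CX was called for 8 members (75.4% of all genes). S100b (2.23 ± 0.05), Aqp4 (2.00 ± 0.06), Slc1a3 (1.53 ± 0.06), Aldoc (1.39 ± 0.06), Sox9 (0.69 ± 0.18) and Gja1 (0.43 ± 0.06) were higher in CB, and Slc1a2 (-1.51 ± 0.17) and Glul (-0.97 ± 0.07) lower. Without the libraries of high mt-Nd5, which include CB replicates 3 and 5, Sox9 was at 0.27 (adjusted p = 0.0189). Gjb6 (0.08 ± 0.07, adjusted p = 0.337) was called without mouse P35_17 alone (0.16, adjusted p = 0.0144), and Aldh1l1 (-0.03 ± 0.04) was not called. HIP against CX was called for 6 members (51.5% of all genes), with Aqp4 (0.86 ± 0.05), Gja1 (0.44 ± 0.06), Slc1a3 (0.36 ± 0.06) and S100b (0.11 ± 0.05) higher and Aldh1l1 (-0.42 ± 0.04) and Gjb6 (-0.17 ± 0.07) lower in HIP. The S100b and Gjb6 calls there (adjusted p = 0.0918 and 0.0603) were lost without the block (0.127 and 0.278) and without 4 and 3 single mice in turn, those of S100b without P35_15, P35_17, P35_26 or P35_31 and those of Gjb6 without P35_11, P35_15 or P35_31. Aldoc (0.09) was called without mouse P35_17 (0.12, adjusted p = 0.0884). CB against HIP was called for 9 members (75.1% of all genes), with S100b (2.12), Aldoc (1.3), Slc1a3 (1.18), Aqp4 (1.139), Sox9 (0.43), Aldh1l1 (0.39) and Gjb6 (0.25) higher and Slc1a2 (-1.51) and Glul (-0.94) lower in CB. The Sox9 call (adjusted p = 0.0513) was lost without mouse P35_17 (0.24, adjusted p = 0.200) or P35_26 (0.32, adjusted p = 0.193), and with all libraries of high mt-Nd5 left out the value was -0.01 (adjusted p = 0.954). Gja1 was level between them (0.00 ± 0.06, adjusted p = 0.953).

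Per kilobase of exon, Glul was the highest member in WT CX and HIP at P7 and P35, at 142.7 ± 18.7 (SD, n = 6) and 158 ± 16.5 CPM per kilobase at P7 and 447 ± 30.9 and 443 ± 27.03 (n = 5) at P35. At P35 Slc1a2 followed in both, at 231 ± 24.6 and 233.5 ± 23.8, overlapping Aldoc at 212 ± 20.8 and 227 ± 20.4. In P35 CB Aldoc led at 557 ± 59.0, with no overlap, ahead of S100b at 254 ± 13.3 and Glul at 229 ± 22.9, which overlapped. Aqp4 led in P7 CB at 122 ± 16.3, overlapping Slc1a3 at 110.0 ± 7.46. Sox9 was the lowest member in every region at P35, at 2.89 to 4.95 CPM per kilobase, and Gjb6 or S100b the lowest at E17.5. These ranks depend on the annotated exon length of each gene.

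Across the 51 WT libraries, the log2 level of each member was correlated with the mean of the other 9, as a description of libraries that share period, region and mouse. Pearson's r was 0.9499 for S100b, 0.943 for Gjb6, 0.890 for Gja1, 0.883 for Aqp4, 0.867 for Glul, 0.850 for Slc1a3, 0.777 for Aldoc, 0.746 for Slc1a2, 0.406 for Aldh1l1 and -0.3965 for Sox9. Among 12219 other genes at a mean of 5 CPM or more, those most like the mean of the members included Fgf1 (0.989), Lgi3 (0.987), Cmtm5 (0.9825), Mpp1 (0.981), Dbndd2 (0.980), Nr3c1 (0.9795), Ermp1 (0.977), Sat1 (0.977) and Gpr37l1 (0.977). Gpr37l1, a glial receptor, also belongs to the lists below.

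Other astrocyte genes were taken as lists, whose counts stand beside the shares of all genes that rose at the first step (41.3%, 38.9% and 35.7% in CX, HIP and CB) and at the second (33.2%, 31.3% and 40.0%). The shares that fell were 40.6%, 39.1% and 35.5% and then 34.5%, 31.5% and 39.4%. Of 14 genes of astrocyte transport and coupling, 14, 13 and 13 rose from E17.5 to P7 in WT CX, HIP and CB and none fell, with medians of 2.72, 1.79 and 1.45. Gjb2, the connexin 26 gene, led in all 3 (6.35, 3.47 and 4.95). From P7 to P35, 10 rose and Slc6a11, a GABA transporter, fell in CX (-1.10), 6 rose and Slc6a11 (-0.97) and Slc38a3, a glutamine transporter (-0.85), fell in HIP, and 11 rose and none fell in CB, with medians of 0.50, 0.34 and 1.29. Ntsr2, a neurotensin receptor, rose most (2.55, 1.81 and 3.15), and Kcnj10, the potassium channel Kir4.1, rose in CB by 2.92, or by 2.07 without the libraries of high mt-Nd5 (adjusted p = 9.15e-08). In CB Slc6a11 was called without them (-0.87, adjusted p = 0.0402). Of 16 genes of astrocyte metabolism and secretion 15, 15 and 13 rose at the first step (medians 1.12, 1.1406 and 0.89), with Gpr37l1 at 7.53, 6.67 and 5.95 and the retinaldehyde dehydrogenase Aldh1a1 at 5.40, 3.48 and 5.74. At the second 14, 13 and 13 rose (medians 1.03, 0.75 and 1.32), with Aldh1a1 at 2.51, 2.70 and 3.09 and the metallothionein Mt1 at 2.66, 2.14 and 3.04. In neither list did the median of all genes leave the range from -0.03 to 0.01 at these steps.

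The 15 gliogenic transcription factors other than Sox9 went mostly the other way. In CX 3 rose and 9 fell at the first step (median -0.93), with Id3 (1.51) and Stat3 (1.03) rising and Nfib (-2.45) and Nfia (-1.58) falling. In HIP Sox8 rose (0.87) and 11 fell (median -0.82), led by Nfib (-1.79) and Nfia (-1.74). CB differed in its counts, with 8 that rose, Nfix (2.12) and Nfia (1.54) among them, and 6 that fell, led by Lhx2 (-2.04) and Sox21 (-1.29), and a median of 0.18. At the second step 2, 1 and 1 rose and 7, 10 and 12 fell in CX, HIP and CB (medians -0.26, -0.59 and -0.53), with Hes5 at -4.81 and Lhx2 at -3.56 in CB. Of 10 radial glia genes, a list that shares Slc1a3, 1, 3 and 2 rose and 7, 7 and 6 fell at the first step (medians -1.31, -0.99 and -0.49), Nes, which encodes nestin, at -3.0 in CX. At the second 1, 0 and 2 rose and 7 fell in each region (medians -0.94, -1.38 and -1.22). The dividing cell markers all 4 fell at both steps in CX and HIP, and in CB 4 rose (median 0.52) and then 4 fell (median -7.78, Top2a -8.50).

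Of the reactive astrocyte genes with enough counts, 10 of 14, 6 of 13 and 9 of 15 rose at the first step in CX, HIP and CB and 2, 4 and 4 fell (medians 0.98, 0.43 and 0.83). Gfap, the astrocyte intermediate filament, rose by 4.09, 2.74 and 7.07, and Vim, the filament of immature glia, fell (-2.50, -2.66 and -1.01). At the second step 4, 3 and 1 rose and 7, 7 and 10 fell (medians -0.31, -0.41 and -1.06), with Ptx3 at -2.98, -3.18 and -4.65. Of 9 Bergmann glia genes, a list that also holds Slc1a3, 9 rose in CB at the first step (median 1.18, Hopx 2.70) and 7 rose and 2 fell at the second (median 1.51, A2m 3.58, Wif1 -0.92). Those 9 were all higher in CB than in CX at P35 (median 2.19, Gdf10 5.07), where 7103 of 18269 genes tested were called higher in CB. On the neuronal side of the glutamate and glutamine cycle 7, 6 and 3 of 10 genes rose and 3 fell in each region at the first step (medians 0.70, 0.50 and 0.14), the CB counts lying near the 35.7% and 35.5% of all genes, and 5, 4 and 6 rose and 4, 4 and 3 fell at the second (medians 0.19, 0.11 and 0.62). Slc17a7, the vesicular glutamate transporter VGLUT1, rose most at the first step (3.64, 3.90 and 3.86). Gls2, a glutaminase, rose at the second (2.16, 1.51 and 2.75).

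Markers of other cell types moved over the same steps, beside the same shares of all genes, and their part in the astrocyte results was not tested. The 6 oligodendrocyte markers rose at both steps in every region, with medians of 2.42, 2.20 and 5.71 and then 5.94, 6.25 and 1.87. Of 6 neuron markers 5, 5 and 3 rose at the first step and 4, 3 and 4 at the second, 2 of them falling at the second step in each region. The 5 microglia markers rose at both steps in CX and HIP, and in CB 5 rose and then 2 rose and 3 fell. The 4 oligodendrocyte precursor markers rose at the first step in CX and HIP and 1 rose in CB, and then 2, 2 and 3 fell. Endothelium markers rose for 4, 1 and 4 of 4 and then for 2 in each region. Meninges markers rose for 5 of 5 in each region and then 3, 2 and 3 fell, red blood cell markers fell for 3, 3 and 2 of 3 and then 1, 2 and 0 fell, choroid plexus markers rose for 5, 1 and 3 of 5 and then for 1, 3 and 2, and ependyma markers for 2, 3 and 3 and then for 1, 0 and 1. Purkinje cell markers rose for 2 of 3, 3 of 3 and 4 of 4 and then for 2, 2 and 4.

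The effect of Cul3 haploinsufficiency was tested between HET and WT in each of the 9 datasets. No member was called in any with edgeR or with DESeq2. Of the edgeR tests of members without a block, 3 had an unadjusted p under 0.05. These were Aldoc and S100b in P35 CB and S100b in P7 CX. Under the same level were 2459 of 17110 genes in P35 CB and 569 of 17675 in P7 CX. With edgeR Cul3 was the only gene called in each dataset, so that called genes made up 0.00603% of genes tested in E17.5 CX, 0.00586% in E17.5 HIP, 0.00568% in E17.5 CB, 0.00566% in P7 CX, 0.00563% in P7 HIP, 0.0057% in P7 CB, 0.00569% in P35 CX, 0.00584% in P35 HIP and 0.00584% in P35 CB. In E17.5 CX the replicate block raised the count of all called genes from 1 to 55, and none was a member (Slc1a2 -0.18 ± 0.06, adjusted p = 0.244 in that fit). With the set in the name of the mouse as a block the count there was 1. S100b and Gjb6 in E17.5 CX and S100b in E17.5 HIP had too few counts to be tested. A member that was not called is not thereby shown to be alike in both genotypes.

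**Figure D4:**
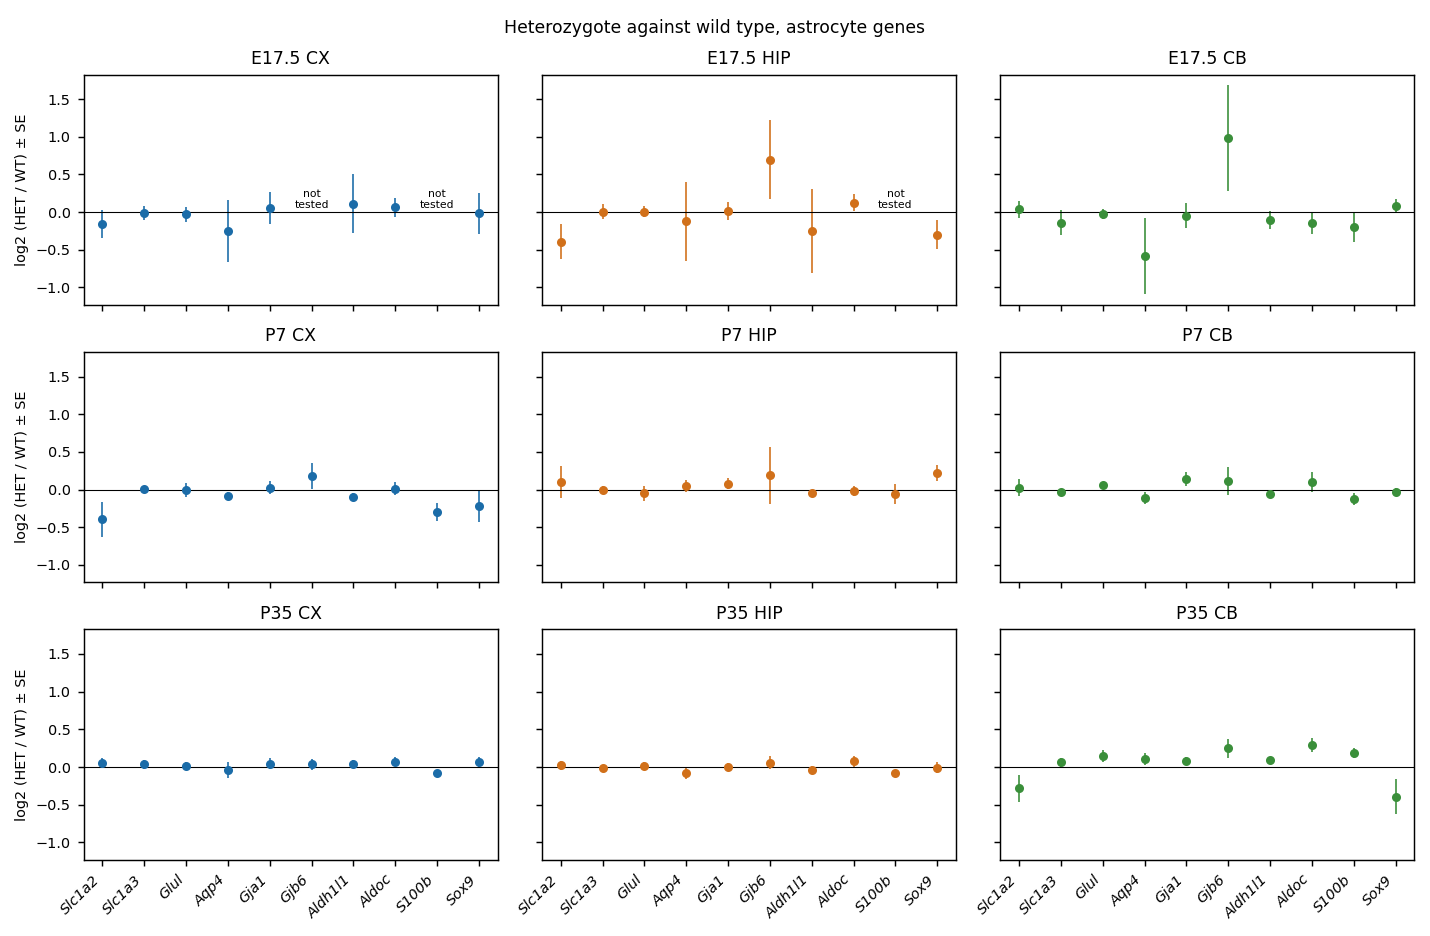
Log2 fold change of HET against WT ± SE (vertical axis) for each astrocyte gene (horizontal axis) in the 9 datasets of period and region, with genes of too few counts marked as not tested. Gjb6 in E17.5 CB has the widest error, 0.70, and Aldoc at 0.30 and S100b at 0.19 in CB lie farthest from 0 relative to their error.

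The members nearest to a difference were Aldoc and S100b in P35 CB. Aldoc lay at 1799, 2010.2, 1545, 1740.3 and 1992 CPM in WT and at 2478, 2078, 2277, 1923 and 2601 CPM in HET. Of the HET libraries 4 exceeded all WT libraries, and the lowest overlapped them. The log2 difference was 0.30 ± 0.09 (unadjusted p = 0.00843, edgeR adjusted p = 0.303), and without the WT libraries with high mt-Nd5, replicates 3 and 5, it was 0.21 (unadjusted p = 0.0352, adjusted p = 0.381). S100b lay at 394, 392.3, 346, 372 and 378 CPM in WT and at 465.5, 369.6, 454, 443 and 447 CPM in HET, 4 of 5 HET libraries being above all WT libraries. Its difference was 0.19 ± 0.07 (unadjusted p = 0.0184, adjusted p = 0.327), and 0.14 without those replicates (unadjusted p = 0.0576, adjusted p = 0.425). Summed Purkinje cell markers covered 7543 to 9198 CPM in WT and 7583 to 9056 CPM in HET in these libraries. The mean log2 CPM of the 5 microglia markers did not overlap, at 3.392 to 3.636 in WT and 3.664 to 3.858 in HET. On that scale the other marker lists overlapped. WT and HET held 10.17 to 10.5 and 10.25 to 10.54 for Purkinje cell and 7.95 to 9.065 and 8.846 to 9.157 for oligodendrocyte markers. Endothelium markers held 5.232 to 5.366 and 5.326 to 5.526. Summed oligodendrocyte markers covered 2508 to 5600 CPM in WT and 4682 to 5908 CPM in HET, and summed endothelium markers 169 to 181 and 172 to 198 CPM. The part of these cell types in the differences was not tested. With 1 library left out in turn the differences stayed between 0.24 and 0.35 for Aldoc and between 0.16 and 0.24 for S100b.

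In P7 CX S100b lay at 7.34, 10.1 and 10.9 CPM in WT (lowest, median, highest) and at 6.39, 7.54 and 9.55 CPM in HET. The groups overlapped, and the difference was -0.29 ± 0.12 (unadjusted p = 0.0266, edgeR adjusted p = 0.900). In the other datasets no member reached an unadjusted p of 0.05 in this fit, which had no block. The member with the smallest p is given for each. At E17.5 these were Slc1a2 in CX (-0.16 ± 0.18, adjusted p = 0.991) and in HIP (-0.39 ± 0.24, adjusted p = 0.941), and Gjb6 in CB (0.99 ± 0.70, adjusted p = 0.988). At P7 they were Sox9 in HIP (0.22 ± 0.11, adjusted p = 0.833) and Aldh1l1 in CB (-0.06 ± 0.04, adjusted p = 0.994). At P35 S100b came first in CX (-0.08 ± 0.05, adjusted p = 0.997) and in HIP (-0.08 ± 0.05, adjusted p = 0.807). No gene of the 7 pathway lists was called by genotype in any dataset. In E17.5 CX 277 of 16594 genes were under an unadjusted p of 0.05 without a block, and 2404 with the replicate block. Slc1a2 there had a smaller error with that block, as given above.

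Whether the genotype effect differed between regions or periods was tested as an interaction. No member was called with edgeR, and at an unadjusted p under 0.05 there were 3 members between regions at P35 and 1, S100b, between periods in CB. That level was reached by 3000 of 19034 genes between regions at P35 and by 2570 of 19416 between periods in CB. Of all genes, 0.0% were called between regions at E17.5 and at P7 and 0.00525% at P35, and 0.0% between periods in CX, in HIP and in CB. The lowest value was that of S100b between regions at P35 (F = 8.37, unadjusted p = 0.00213, adjusted p = 0.255), where its differences were -0.08 in CX, -0.08 in HIP and 0.19 in CB, followed there by Aldoc (F = 4.52, adjusted p = 0.275). DESeq2 called S100b in that interaction (adjusted p = 0.0760), 1 of 265 genes it called there.

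**Figure D5:**
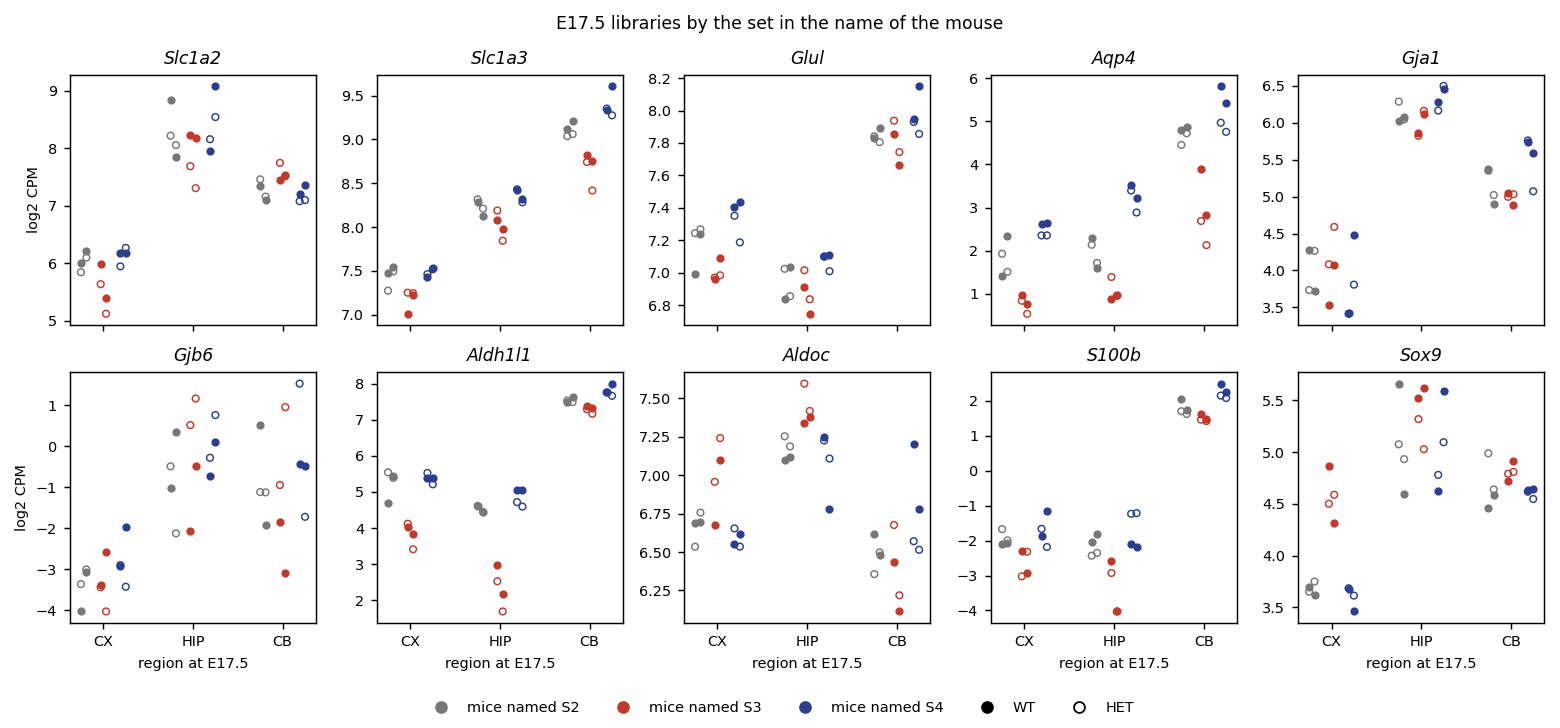
Log2 CPM of the astrocyte genes in the E17.5 libraries (vertical axis), by region (horizontal axis) and by the set in the name of the mouse (S2 grey, S3 red, S4 blue), filled points for WT and open points for HET. Libraries of the 4 mice named S3 lie below the other 8 for Aldh1l1 and Aqp4 in all 3 regions, for Slc1a3 in CX and CB, and above them for Sox9 in CX.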

How the data were processed

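Total RNA was depleted of ribosomal RNA (Ribo-Zero), made into stranded libraries (TruSeq Stranded Total RNA) and sequenced paired-end on a HiSeq4000. Reads were trimmed with cutadapt 1.14, aligned with STAR 2.5.3a to GRCm38.p5 and quantified with RSEM 1.3, per the submitters' processing notes and the study's methods. The strand setting of the counting is not given in the sources used here. The authors deposited 1 table of RSEM expected counts per gene, of which 12.71% of the values above 0 were not whole. They were rounded to whole counts here. Symbols matched for 53274 of 53465 genes, and 0 columns belonged to other samples.

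Groups were taken from the labels, and mice P35_22 and P35_23 were left out. The members and lists were chosen with earlier results of these data known. Genes were filtered with filterByExpr (minimum count 10, total 15), scaled by TMM and tested with edgeR 4.0.16 in R 4.3.3 (quasi-likelihood test, Benjamini-Hochberg adjusted p of 0.1 or less), with the mouse as a block between regions. Periods were fitted over the 3 periods of a region and genotype. CPM values used TMM factors over all libraries. Ratios used a pseudocount of 0.5 counts per kilobase of exon and exact permutation tests (scipy 1.17.1). Genes named were all 10 members, for genotype those under an unadjusted p of 0.05 or else the smallest p, for lists up to 2 called rises and 2 falls, and 10 genes of like pattern, of which 1 is not reported here. Pcp2, Gfap, Nes, Top2a, Hopx and the repeated list genes were named after their values were seen.

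In E17.5 CX, deviations of same-numbered HET and WT libraries correlated at 0.113 to 0.759 in all 6 pairs. Same-numbered mice of E17.5 also share the set in their names, so a pairing and the set cannot be told apart. Each of the remaining 8 datasets had a pair that did not exceed 0.1. No 2 libraries of a group agreed within counting noise (chi-square per degree of freedom 5.734 or more). P-values measure the spread between mice of 1 line. On simulated data for the P7 CX genotype comparison (17510 genes), 82% of genes changed 1.5-fold and 100% of those changed 3-fold were recovered, and 11.2% of calls were false. Over all simulated comparisons, recovery of 1.5-fold changes ran from 59% (genotype by period in CX) to 90% (CB against CX at P7). Recovery of 3-fold changes ran from 96% to 100%. Smaller changes were not simulated. The simulated libraries were independent draws without an effect of mouse, set or mt-Nd5. No genotype comparison at E17.5 or P35 was simulated, so these rates are not their recovery. Alternatives were DESeq2 1.42.0, upper-quartile and total-count scaling, no filter and RUVs with 3 factors. Further ones were Xist as a covariate of the genotype tests, the replicate block, putting the 2 mice back, and leaving out libraries. Those on mt-Nd5, on mice named S3 and on P7 and P35 alone were chosen after seeing the data.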

Additional observations from a re-analysis of the deposited data

Results flagged for a closer look

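In 11 groups of 180 the highest or lowest library lay far from the others, where chance sets about 1 in 20 groups apart. In P7 CX WT replicate 4, a library of high mt-Nd5, Slc1a2 stood at 1996 CPM against 709 to 1082 CPM in the others and Sox9 at 22.37 against 8.81 to 9.78 CPM. In P35 CB HET replicate 2, S100b was low at 369.6 against 443 to 465.5 CPM and Slc1a2 low at 839.2 against 921 to 945 CPM. Replicate 4 of E17.5 CX WT held Aldoc at 137.3 against 93.6 to 104 CPM and Slc1a2 at 42.05 against 63.3 to 74.3 CPM. Glul stood at 979.7 CPM in P35 CB HET replicate 6 (others 812 to 836 CPM) and at 333.6 CPM in P7 CB HET replicate 6 (others 292 to 305 CPM). Gja1 was at 141.3 CPM in P7 CB HET replicate 1 (others 96.1 to 104 CPM), Gjb6 at 61.33 CPM in P35 CX WT replicate 6 (others 48.2 to 50.5 CPM), and S100b at 20.52 CPM in P7 HIP HET replicate 5 (others 13.1 to 15.7 CPM). In P7 CB HET replicate 1 the meninges markers were also the highest of the group, and their part was not tested.

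The change of a member over a step differed between regions in WT in 17 tests of an interaction (edgeR quasi-likelihood F). In the same interaction 77.2% of all genes tested were called from E17.5 to P7 and 65.9% from P7 to P35. From E17.5 to P7, F was 236.3 for Glul, 103.7 for S100b, 103.5 for Slc1a2, 87.14 for Gja1, 41.92 for Aldh1l1, 23.13 for Slc1a3, 22.57 for Aqp4, 15.92 for Gjb6, 8.677 for Sox9 and 3.933 for Aldoc. At the later step it was 59.2 for Aldoc, 33.41 for Slc1a3, 22.66 for Aldh1l1, 19.59 for Gja1, 11.96 for S100b, 7.733 for Glul and 7.455 for Slc1a2.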

How the results depend on the processing

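Counts of members called per comparison stayed within 1.5 times the reported count under each alternative run, except that DESeq2 called 1 member (S100b) in the interaction of genotype and region at P35, in place of 0. The count of all genes called by genotype, 1 per dataset, was higher with RUVs (64, 11, 14, 129, 67, 33, 190 and 68 in E17.5 HIP and CB, P7 CX, HIP and CB, and P35 CX, HIP and CB) and with DESeq2 (2, 3, 6, 3, 4, 3 and 218 in E17.5 CB, P7 CX, HIP and CB, and P35 CX, HIP and CB). With the replicate block it was 55 in E17.5 CX, 2 in P35 CX and 0 in P35 CB. It was 2 in P35 CX with no filter, 2 in P35 CX and CB with mice P35_22 and P35_23 put back, and 2 in P35 CB without high mt-Nd5. Interactions gave 1 gene at P7 (DESeq2, no filter), 265 (DESeq2) and 0 (without high mt-Nd5) between regions at P35, and 1 in HIP and 95 in CB (DESeq2) between periods. With 1 library left out, the highest counts were 2 in E17.5 CX, P7 HIP and P35 HIP, 4 in P7 CB, 6 in P35 CB, 1 and 0 to 4 for the interactions at P7 and P35 and 8 for that in CB. The cause was not tested.

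Values near 0 changed sign. With total-count scaling these were Sox9 -0.04, Aldh1l1 -0.06 (P7 to P35, CX), Slc1a3 -0.14 (HIP), Sox9 -0.17 (CB), Aldoc 0.06 (CB against CX, E17.5), and at P35 Slc1a2 0.01 (HIP against CX), Aldh1l1 0.07 (CB against CX) and Gja1 0.09 (CB against HIP). Slc1a3 from P7 to P35 in HIP was -0.01 with no filter and -0.0019 with upper-quartile scaling. Slc1a2 in P35 HIP against CX was 0.01 with either and with the 2 mice put back. Sox9 from P7 to P35 in CB was -0.02 with upper-quartile scaling, -0.0024 with the replicate block and -0.46 without high mt-Nd5, where Sox9 in P35 CB against HIP was -0.01. Aldoc in E17.5 CB against CX was 0.16 without the mice named S3. Leaving out 1 library or mouse gave -0.08 to 0.06 for Aldh1l1 from E17.5 to P7 in CB, -0.22 to 0.16 for Sox9 from P7 to P35 in CB, -0.23 to 0.09 for Aldoc in E17.5 CB against CX, -0.19 to 0.07 and -0.0037 to 0.25 for Gjb6 in P7 HIP against CX and CB against HIP, and at P35 -0.07 to 0.06 for Slc1a2 and -0.07 to 0.0017 for Glul in HIP against CX and -0.03 to 0.01 for Gja1 in CB against HIP.

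E17.5 values of S100b and Gjb6 in CX and HIP rest on few counts, and 5 or 6 mice of 1 line per group limit the genotype tests.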
